A study of Mus musculus with 6 samples.

Results

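Genes of DNA replication and of mitosis were examined in islet RNA of mice labelled FFA2 global KO and of WT mice. The set holds 44 genes of the 22923 listed in the count table, chosen by name as replication and mitosis genes, with E2F factors, D cyclins and their inhibitors left out. By the stage in which its protein mainly acts, each gene was placed in S phase, when DNA is copied (18 genes), or in mitosis, when chromosomes are condensed, lined up and pulled apart (26 genes). All mice were fed normal chow and were 10 to 12 weeks old per the labels. The study describes the mice of this RNA as male and somewhat older than that. There were 3 libraries labelled FFA2 global KO and 3 WT libraries, each made from the pooled islets of 2 mice. The deletion of Ffar2, the free fatty acid receptor FFA2, was present in every tissue of the knockout mice, per the labels, and no Cre driver or other allele is named. Islets had recovered overnight in culture before use. It is not stated whether each library had its own pool, so the spread behind every p-value may be technical.

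Ffar2 itself had 71.8, 43.9 and 46.1 CPM (counts relative to library size, scaled by TMM) in the libraries labelled FFA2 global KO, against 34.1, 27.0 and 26.5 CPM in WT libraries. Every library labelled FFA2 global KO was above every WT library, which is opposite to the direction of a deleted gene, so every direction given here rests on the label. Markers of beta cells (Pdx1, Mafa, Nkx6-1, Ucn3, Slc2a2, G6pc2 and Slc30a8) were detected in all libraries, with a summed level of 3865 to 5315 CPM in libraries labelled FFA2 global KO and 5134 to 5563 CPM in WT libraries. The single genes went both ways. Their median log2 fold change, libraries labelled FFA2 global KO over WT, was −0.09, with 4 of 7 below 0 and 3 above. Ins1, Ins2 and Gcg are listed at 0 in all libraries, among the genes that the authors' caller skipped, and were left out. A list of 12 acinar genes, which mark exocrine cells of the pancreas, was read as a share of the counts kept. These 12 genes took 1.03%, 6.73% and 16.4% in replicates 1 to 3 labelled FFA2 global KO, against 2.98%, 3.44% and 0.88% in WT replicates 1 to 3. The libraries held 17067263 to 22792367 counts with the label FFA2 global KO and 19352339 to 21283444 counts in WT. In RNA of whole islets, fewer cells of a type and less RNA per cell cannot be told apart.

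A dividing cell copies its DNA in S phase and separates the copies in mitosis, and each stage has its own wave of transcription. The S phase wave is driven mainly by E2F factors, and the later wave of mitotic genes by FOXM1, B-MYB and the MuvB proteins, which bind a cell cycle gene homology region (CHR), together with NF-Y at CCAAT boxes. Adult beta cells divide rarely, so transcripts of these genes are scarce in islets, and they come from any islet cell that cycles, including endothelial, stromal and immune cells.

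The promoters of the set carried different letters in the 2 stages, and the following stretches are printed because they show both kinds. Promoters were taken from RefSeq on build GRCm38.p6, from 250 bases before to 50 bases after the start, and 35 of the 44 genes matched, 15 of S phase and 20 of mitosis. The start lay within 100 bases of the deposited gene start for 34 of them. On both strands, matches were sought to an E2F motif (TTTCCCGC, TTTGGCGC, TTTCGCGC or TTTGCCGC), to the CHR (TTTGAA) and to CCAAT. Capitals mark these matches, read as the reverse complement where they lie on the other strand (ATTGG for CCAAT), and E2F matches may overlap each other, as in Mcm5 and Mcm6. The first group is of S phase genes, at chr8:75109339-75109508 on the plus strand for Mcm5, chr1:128359706-128359875 on the minus strand for Mcm6, chr5:138171884-138172053 on the minus strand for Mcm7 and chr11:98907981-98908150 on the plus strand for Cdc6. Mcm5, Mcm6 and Mcm7 encode subunits of the replicative helicase, and Cdc6 encodes a loader of that helicase. Each stretch ends at the base before the RefSeq start.
Mcm5: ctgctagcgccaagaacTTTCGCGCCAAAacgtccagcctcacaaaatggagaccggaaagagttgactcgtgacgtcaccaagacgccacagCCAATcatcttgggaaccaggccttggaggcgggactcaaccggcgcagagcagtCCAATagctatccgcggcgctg
Mcm6: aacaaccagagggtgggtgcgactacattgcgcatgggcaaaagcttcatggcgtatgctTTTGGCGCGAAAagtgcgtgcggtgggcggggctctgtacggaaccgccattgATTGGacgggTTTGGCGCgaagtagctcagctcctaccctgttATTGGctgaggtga
Mcm7: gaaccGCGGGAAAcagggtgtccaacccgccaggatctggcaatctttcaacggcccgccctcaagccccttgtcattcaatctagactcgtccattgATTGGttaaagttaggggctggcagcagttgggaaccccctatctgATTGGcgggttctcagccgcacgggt
Cdc6: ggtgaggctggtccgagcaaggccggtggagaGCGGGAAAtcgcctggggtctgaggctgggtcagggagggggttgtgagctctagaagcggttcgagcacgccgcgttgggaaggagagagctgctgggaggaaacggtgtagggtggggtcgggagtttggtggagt

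The second group is of mitotic genes, at chr10:69352913-69353082 on the minus strand for Cdk1, chr4:118437344-118437513 on the minus strand for Cdc20, chr7:135716380-135716549 on the minus strand for Mki67 and chr7:80294306-80294475 on the plus strand for Prc1. Cdk1 encodes the kinase that drives entry into mitosis, Cdc20 an activator of the anaphase-promoting complex, Mki67 the Ki-67 protein that coats mitotic chromosomes, and Prc1 a crosslinker of spindle midzone microtubules.
Cdk1: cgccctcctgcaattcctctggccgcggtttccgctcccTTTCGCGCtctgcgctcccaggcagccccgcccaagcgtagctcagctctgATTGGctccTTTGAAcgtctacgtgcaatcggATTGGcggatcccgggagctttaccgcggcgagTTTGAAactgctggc
Cdc20: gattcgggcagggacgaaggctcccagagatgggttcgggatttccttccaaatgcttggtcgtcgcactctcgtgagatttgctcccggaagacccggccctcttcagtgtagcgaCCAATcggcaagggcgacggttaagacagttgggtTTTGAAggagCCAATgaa
Mki67: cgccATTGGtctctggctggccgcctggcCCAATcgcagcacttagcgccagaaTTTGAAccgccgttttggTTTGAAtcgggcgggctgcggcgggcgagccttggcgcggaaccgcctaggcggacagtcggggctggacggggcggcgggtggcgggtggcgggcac
Prc1: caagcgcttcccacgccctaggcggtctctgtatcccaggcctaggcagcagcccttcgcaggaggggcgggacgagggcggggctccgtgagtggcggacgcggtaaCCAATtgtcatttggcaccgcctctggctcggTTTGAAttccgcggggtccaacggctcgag

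Each of the 4 S phase stretches holds an E2F match and no CHR match, and each of the 4 mitotic stretches holds a CHR match. Over all matched members, the E2F motif occurred in 7 of 15 S phase promoters (46.7%) and 1 of 20 mitotic promoters (5.0%), which was that of Cdk1, against 399 of 10025 promoters of all genes tested (3.98%). The CHR occurred in 15 of 20 mitotic promoters (75.0%) and 1 of 15 S phase promoters (6.67%), which was that of Mcm2, against 11.4% of all. In 14 of the 20 mitotic promoters and 0 of the 15 S phase promoters the CHR began within 50 bases of the start, against 2.7% of all promoters, a window chosen after the positions were seen. CCAAT occurred in 18 of 20 mitotic promoters (90.0%), 10 of 15 S phase promoters (66.7%) and 38.2% of all. The CHR and CCAAT stood together in 15 of 20 mitotic promoters, against 4.71% of all. These are matches of letters and carry no test.

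**Figure D1:**
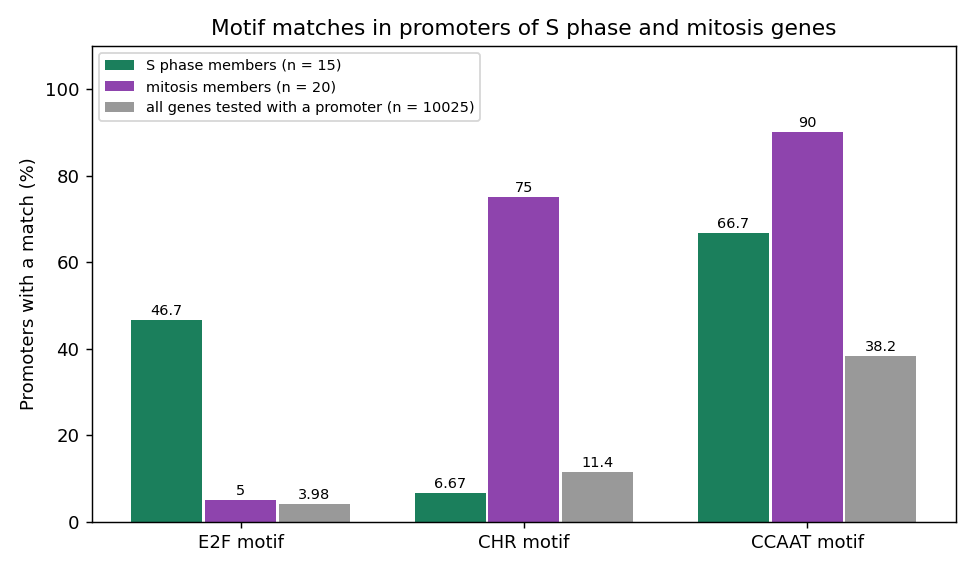
Share of promoters (percent, vertical axis) with at least 1 match to the E2F, CHR or CCAAT motif, for 15 S phase members, 20 mitosis members and 10025 promoters of all genes tested. E2F matches stand out in the S phase bars (46.7%) and CHR matches in the mitosis bars (75%).

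Transcripts of the set were scarce. In the authors' RPKM, which are per length and pooled per genotype, the median over the S phase members was 1.22 with the label FFA2 global KO and 1.54 in WT, and over the mitosis members 0.461 with the label FFA2 global KO and 0.527 in WT. Over all entries above 0 the median RPKM was 4.25 with the label FFA2 global KO and 3.92 in WT. Pcna, the sliding clamp of DNA polymerases that also serves DNA repair, was the most abundant member, with 56.0 RPKM under the label FFA2 global KO and 76.4 RPKM in WT. Pcna alone made up 36.5% to 47.5% of the summed CPM of the 18 S phase members. A further 3 members were below the filter on low counts and were not tested, namely Cdc25c, a phosphatase that activates CDK1, Aurkb, a kinase that corrects chromosome attachment, and Bub1, a kinase of the spindle checkpoint. The other 41 members were tested within a fit of 14082 genes.

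**Figure D2:**
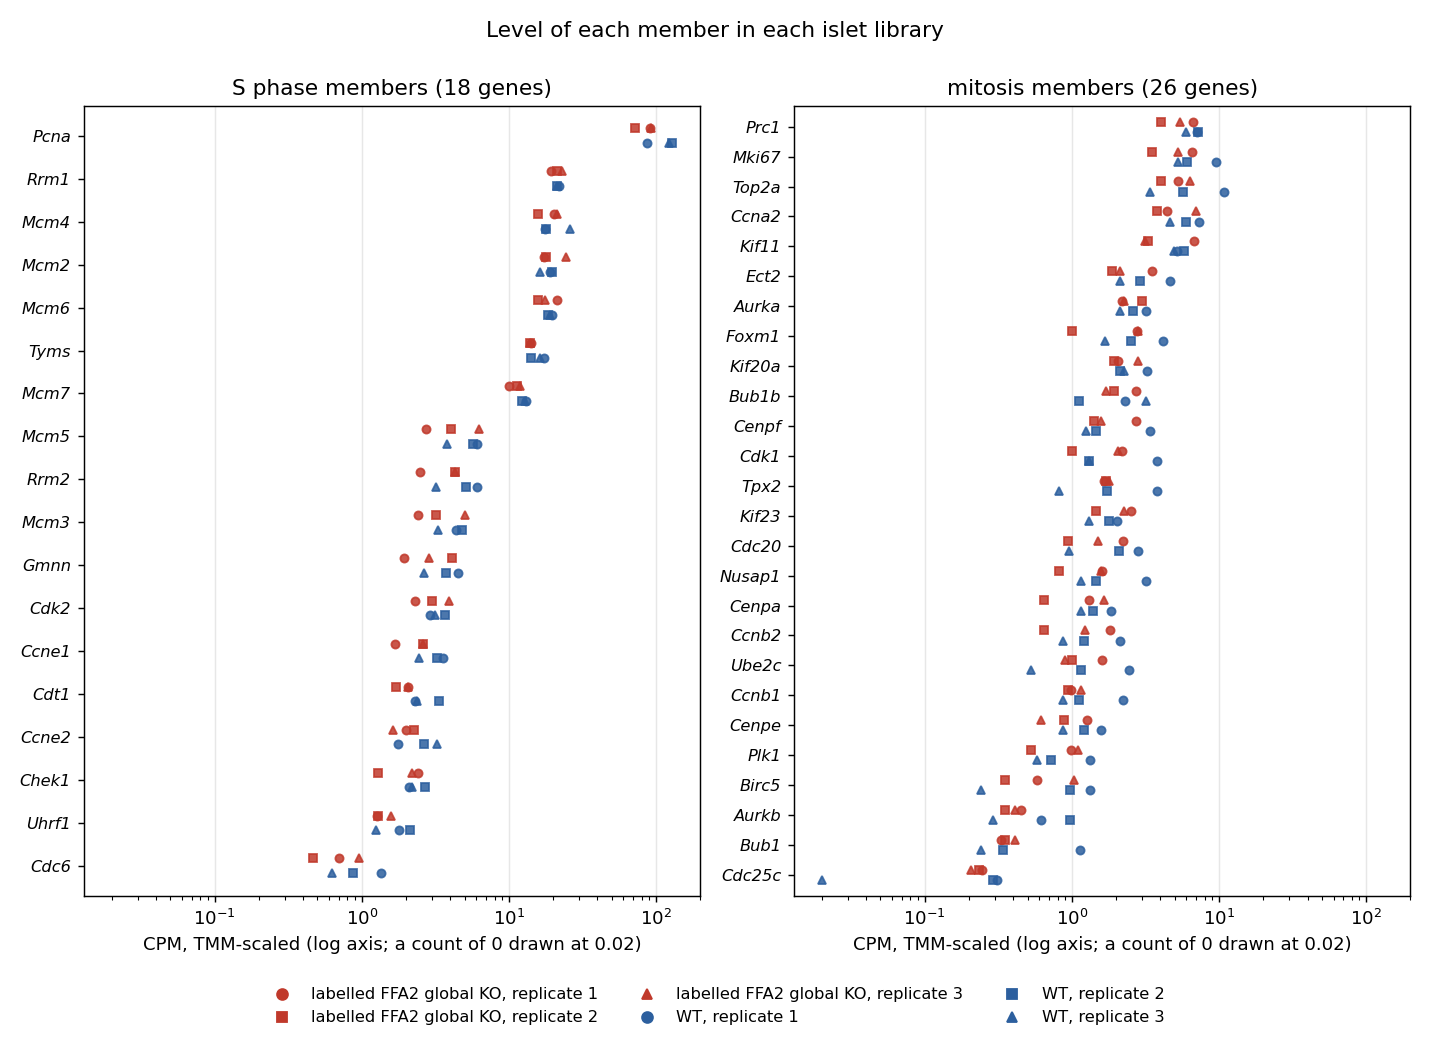
CPM (TMM-scaled, logarithmic horizontal axis) of each of the 18 S phase and 26 mitosis members in each library, with libraries labelled FFA2 global KO in red above WT libraries in blue and replicates shown by marker shape. The points of both genotypes overlap for nearly all members, and the WT replicate 1 circle is the rightmost blue point for most mitosis members.

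No member passed the test between the genotypes, and the estimates leaned to lower values in the libraries labelled FFA2 global KO. In edgeR 0 of 41 members passed an adjusted p of 0.05, as did 0 of all 14082 genes (0%), while among all genes DESeq2 called 8 and limma-voom 0. The lowest adjusted p of a member was 0.852. At an unadjusted p under 0.05, edgeR and limma-voom had 0 members and DESeq2 had 1 of 41, Pcna. Over all genes DESeq2 had 692 at that p (4.91%) and limma-voom 629 (4.47%). In edgeR 298 of all genes were lower (2.12%) and 363 higher (2.58%) in the libraries labelled FFA2 global KO. The log2 fold change, libraries labelled FFA2 global KO over WT, was below 0 for 39 of 41 members (95.1%), against 46.7% of all genes tested. Its median was −0.29 over the members, −0.25 over the S phase members and −0.30 over the mitosis members, against 0.02 over all genes. The members were chosen with earlier results of these data known, and the count below 0 rested largely on 1 library. Without WT replicate 1 that count was 24 of 41, with a median of −0.08. CPM of the genotypes did not overlap for 3 members, all lower in the libraries labelled FFA2 global KO (Cdt1, Mcm7 and Tyms), against 5.84% of all genes in that direction, and for 0 members in the other, against 5.36% of all genes.

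**Figure D3:**
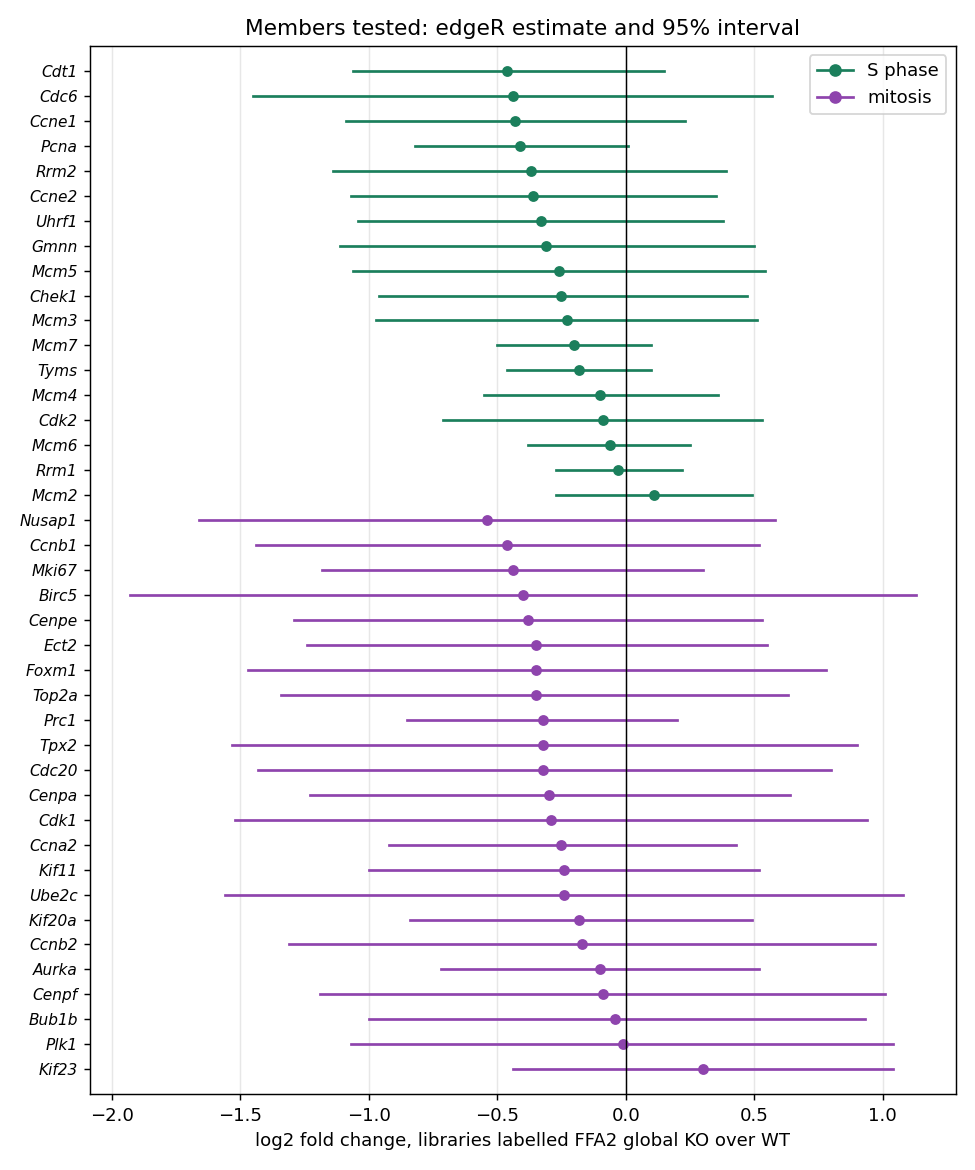
Log2 fold change (horizontal axis, libraries labelled FFA2 global KO over WT) with the 95% interval from edgeR for the 18 S phase and 23 mitosis members tested. Every interval spans 0, and 39 of the 41 estimates lie below it.

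Of the S phase cyclins and their kinase, none passed the test. Ccne1, a cyclin that starts S phase with CDK2, had 1.68, 2.63 and 2.60 CPM in libraries labelled FFA2 global KO, against 3.57, 3.24 and 2.46 CPM in WT libraries. Replicates 2 and 3 labelled FFA2 global KO lay just above the lowest WT library, so the genotypes overlapped, with a log2 fold change of −0.43 (SE 0.28, adjusted p = 0.852 from edgeR). Ccne1 lies on chromosome 7, 7.27 Mb from Ffar2. Ccne2, the other E cyclin, had 2.01, 2.28 and 1.64 CPM in libraries labelled FFA2 global KO, against 1.76, 2.66 and 3.23 CPM in WT libraries. Here WT replicate 1 was among the low libraries, and the log2 fold change was −0.36 (SE 0.30). Cdk2, which encodes the kinase, averaged 3.06 ± 0.81 CPM in libraries labelled FFA2 global KO and 3.24 ± 0.40 CPM in WT libraries (SD, n = 3 each), which overlapped.

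Licensing is the loading of the MCM helicase on origins before S phase. Its genes here encode helicase subunits, loaders and an inhibitor of loading, and 8 of the 9 had estimates below 0 without passing the test. Cdt1, which brings the helicase to origins, had 2.05, 1.70 and 2.06 CPM in libraries labelled FFA2 global KO, against 2.29, 3.34 and 2.36 CPM in WT libraries. All libraries labelled FFA2 global KO were below all WT libraries, 2 of the WT libraries narrowly, with a log2 fold change of −0.46 (SE 0.26, adjusted p = 0.852 from edgeR) and a 95% interval of −1.06 to 0.15. Cdc6 (0.468 to 0.959 CPM in libraries labelled FFA2 global KO and 0.626 to 1.36 CPM in WT libraries) and Gmnn, the inhibitor of CDT1 (1.93 to 4.10 CPM in libraries labelled FFA2 global KO and 2.65 to 4.53 CPM in WT libraries), overlapped between genotypes.

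The 6 helicase subunits did not vary alike over the libraries. Mcm7 had 9.97, 11.4 and 11.9 CPM in libraries labelled FFA2 global KO, against 13.1, 12.3 and 12.9 CPM in WT libraries. The genotypes did not overlap, but the difference was small, with a log2 fold change of −0.20 (SE 0.13, adjusted p = 0.852 from edgeR). Mcm2 had 17.3, 17.9 and 24.4 CPM in libraries labelled FFA2 global KO, against 19.0, 19.7 and 16.4 CPM in WT libraries. Only replicate 3 labelled FFA2 global KO stood above the WT range, and Mcm2 was the single S phase member with an estimate above 0 (log2 fold change 0.11, SE 0.16), which turned to −0.07 without that library and also under total-count scaling. Mcm4 had 20.4, 15.8 and 21.3 CPM in libraries labelled FFA2 global KO, against 17.6, 18.0 and 26 CPM in WT libraries. Mcm6 had 21.2, 15.8 and 17.5 CPM in libraries labelled FFA2 global KO, against 19.5, 18.6 and 18.9 CPM in WT libraries. Mcm4 and Mcm6 overlapped between genotypes, with log2 fold changes of −0.10 (SE 0.19) and −0.06 (SE 0.13), and both estimates were 0.03 without replicate 2 labelled FFA2 global KO. Mcm4 was also 0.10 without WT replicate 3. Mcm3 had 2.42, 3.22 and 5.07 CPM in libraries labelled FFA2 global KO, against 4.36, 4.79 and 3.32 CPM in WT libraries. Mcm5 had 2.75, 4.04 and 6.30 CPM in libraries labelled FFA2 global KO, against 6.03, 5.71 and 3.80 CPM in WT libraries. For both genes replicate 1 labelled FFA2 global KO was lowest and replicate 3 of the same label highest of the 6 libraries, with log2 fold changes of −0.23 (SE 0.31) for Mcm3 and −0.26 (SE 0.34) for Mcm5. Without replicate 3 labelled FFA2 global KO these were −0.57 and −0.62, and without replicate 1 of that label both were −0.01.

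Among the genes of DNA synthesis, Pcna had the lowest unadjusted p of all members. It had 91.1, 71.7 and 92.2 CPM in libraries labelled FFA2 global KO, against 86.3, 129 and 123 CPM in WT libraries. WT replicate 1 lay within the range of the libraries labelled FFA2 global KO, and the other WT libraries lay well above it. The mean was 85 ± 11.5 CPM in libraries labelled FFA2 global KO and 113 ± 22.9 CPM in WT libraries (SD, n = 3 each). The log2 fold change was −0.41 (SE 0.18, 95% interval −0.82 to 0.01, adjusted p = 0.852 from edgeR). Tyms, thymidylate synthase, had 14.2, 14.0 and 14.0 CPM in libraries labelled FFA2 global KO, against 17.3, 14.2 and 16.3 CPM in WT libraries. The genotypes only just failed to overlap, at a log2 fold change of −0.18 (SE 0.12). Rrm2, the regulated subunit of ribonucleotide reductase, had 2.5, 4.33 and 4.32 CPM in libraries labelled FFA2 global KO, against 6.03, 5.13 and 3.18 CPM in WT libraries. WT replicates 1 and 2 were the highest libraries and WT replicate 3 lay within the other genotype's range, with a log2 fold change of −0.37 (SE 0.33). Its partner subunit Rrm1 hardly varied, at 21.1 ± 1.83 CPM in libraries labelled FFA2 global KO and 21.4 ± 0.42 CPM in WT libraries (SD, n = 3 each), and its log2 fold change was −0.03 (95% interval −0.27 to 0.22). Uhrf1, which keeps DNA methylation through replication, and Chek1, a checkpoint kinase, had log2 fold changes of −0.33 (SE 0.30) and −0.25 (SE 0.30).

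Of the mitotic chromosome genes, Mki67 encodes the protein stained in the study as the mark of dividing cells. Its counts were 159, 60 and 77 in libraries labelled FFA2 global KO, against 217, 125 and 109 in WT libraries. As CPM these were 6.53, 3.51 and 5.28 in libraries labelled FFA2 global KO, against 9.55, 6.05 and 5.25 in WT libraries. WT replicate 1 was the highest library and replicate 2 labelled FFA2 global KO the lowest, and the other 4 libraries were interleaved. The log2 fold change of Mki67 was −0.44 (SE 0.31, 95% interval −1.18 to 0.30, adjusted p = 0.852 from edgeR), and −0.15 without WT replicate 1. Top2a, the topoisomerase that untangles chromosomes, had 5.25, 4.04 and 6.30 CPM in libraries labelled FFA2 global KO, against 10.8, 5.66 and 3.37 CPM in WT libraries. WT libraries held both the highest and the lowest value, and the log2 fold change of −0.35 (SE 0.42) became 0.20 without WT replicate 1.

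The cyclins and kinase of mitotic entry were mostly highest in WT replicate 1 and did not pass the test. Ccna2, a cyclin of S phase and of entry into mitosis, had 4.43, 3.81 and 6.92 CPM in libraries labelled FFA2 global KO, against 7.26, 6.0 and 4.62 CPM in WT libraries. Ccnb1, the cyclin that activates CDK1 at entry, had 0.985, 0.937 and 1.16 CPM in libraries labelled FFA2 global KO, against 2.24, 1.11 and 0.866 CPM in WT libraries. Cdk1 had 2.18, 0.995 and 2.06 CPM in libraries labelled FFA2 global KO, against 3.79, 1.31 and 1.3 CPM in WT libraries. All 3 genes were highest in WT replicate 1, and for Cdk1 the other WT libraries lay below 2 of the libraries labelled FFA2 global KO. Log2 fold changes were −0.25 (SE 0.28) for Ccna2, −0.46 (SE 0.42) for Ccnb1 and −0.29 (SE 0.52) for Cdk1, and without WT replicate 1 they were 0.05 for Ccnb1 and 0.42 for Cdk1. Foxm1, the factor of the mitotic wave, is counted in 1 entry with 4933413G19Rik, and the strand of counting is not given in the sources used here. That entry had 2.75, 0.995 and 2.81 CPM in libraries labelled FFA2 global KO, against 4.14, 2.52 and 1.68 CPM in WT libraries. Its log2 fold change was −0.35 (SE 0.48), and 0.06 without WT replicate 1. Ccnb2, another B cyclin, had a log2 fold change of −0.17 (SE 0.48). Cdc25c had 6, 4 and 3 counts in libraries labelled FFA2 global KO, against 7, 6 and 0 counts in WT libraries.

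The mitotic kinases and their partners did not pass the test or the filter. Plk1, a kinase of entry, spindle and cytokinesis, had 0.985, 0.527 and 1.10 CPM in libraries labelled FFA2 global KO, against 1.32, 0.726 and 0.578 CPM in WT libraries. The genotypes were interleaved, with a log2 fold change of −0.01 (SE 0.45) that was 0.41 without WT replicate 1 and 0.24 without replicate 2 labelled FFA2 global KO. Aurkb had 11, 6 and 6 counts in libraries labelled FFA2 global KO, against 14, 20 and 6 counts in WT libraries. Birc5, survivin, which acts with AURKB, had 14, 6 and 15 counts in libraries labelled FFA2 global KO, against 30, 20 and 5 counts in WT libraries. The exact 95% Poisson interval of the 5 counts of Birc5 in WT replicate 3 was 1.62 to 11.7 counts, and counting error alone was thus wide. Birc5 had a log2 fold change of −0.40 (SE 0.65), and 0.08 without WT replicate 1. Aurka, a kinase of the spindle poles, was at 2.18 to 2.99 CPM in libraries labelled FFA2 global KO and 2.12 to 3.21 CPM in WT libraries.

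The genes of the spindle checkpoint and of mitotic exit overlapped between genotypes. Cdc20 had 2.22, 0.937 and 1.51 CPM in libraries labelled FFA2 global KO, against 2.82, 2.08 and 0.963 CPM in WT libraries. The highest library was again WT replicate 1, and the log2 fold change was −0.32 (SE 0.47), or 0.04 without that library. Bub1b, which holds CDC20 in check until chromosomes are attached, and Ube2c, a ubiquitin-conjugating enzyme of the anaphase-promoting complex, had log2 fold changes of −0.04 (SE 0.41) and −0.24 (SE 0.56). Bub1 had 8, 6 and 6 counts in libraries labelled FFA2 global KO, against 26, 7 and 5 counts in WT libraries.

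Of the 7 spindle and cytokinesis genes, 6 had estimates below 0. Kif23, a motor of the central spindle, was the exception, with 2.54, 1.46 and 2.26 CPM in libraries labelled FFA2 global KO, against 2.02, 1.79 and 1.3 CPM in WT libraries. The genotypes overlapped, and its log2 fold change of 0.30 (SE 0.31, adjusted p = 0.886 from edgeR) was the highest of the set. Nusap1, which bundles spindle microtubules, had the lowest estimate of the set at −0.54 (SE 0.47). Prc1 had 6.65, 4.04 and 5.41 CPM in libraries labelled FFA2 global KO, against 7.09, 7.21 and 5.92 CPM in WT libraries. Replicate 1 labelled FFA2 global KO lay above WT replicate 3, so the genotypes overlapped, with a log2 fold change of −0.32 (SE 0.22). Kif11, the motor that pushes spindle poles apart, was at 6.81, 3.28 and 3.15 CPM in libraries labelled FFA2 global KO, against 5.15, 5.76 and 4.91 CPM in WT libraries. Replicate 1 labelled FFA2 global KO was the highest of the 6 libraries and the other libraries of that label the lowest, with a log2 fold change of −0.24 (SE 0.32). Without replicate 1 labelled FFA2 global KO, Kif11 and Prc1 had an unadjusted p under 0.05 in edgeR. They were 2 of 42 members in that fit, against 991 of 14245 genes (6.96%), and no member passed the adjusted test. Kif20a, Tpx2 and Ect2, which serve cytokinesis and spindle assembly, had log2 fold changes between −0.35 and −0.18.

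The 3 kinetochore genes had estimates below 0 and did not pass the test. Cenpf, a large protein of the outer kinetochore, had 2.71, 1.41 and 1.58 CPM in libraries labelled FFA2 global KO, against 3.39, 1.45 and 1.25 CPM in WT libraries. WT replicate 1 was the highest and WT replicate 3 the lowest library, with a log2 fold change of −0.09 (SE 0.47). That estimate was 0.50 without WT replicate 1, 0.09 without replicate 2 labelled FFA2 global KO and 0.03 without replicate 3 of that label. Cenpa, the histone variant of centromeres, and Cenpe, a kinetochore motor, had log2 fold changes of −0.30 (SE 0.40) and −0.38 (SE 0.39).

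The stages were then set against each other in each library. For each gene the log2 CPM was taken relative to its mean over the 6 libraries, and the median over the genes of a stage gave the level of that stage in a library. The S phase level was −0.15, −0.14 and 0.05 in replicates 1 to 3 labelled FFA2 global KO, against 0.11, 0.25 and 0.00 in WT replicates 1 to 3. These lay close together, within a range of 0.40, and replicate 3 labelled FFA2 global KO was above WT replicate 3. The mitosis level was 0.22, −0.50 and 0.01 in replicates 1 to 3 labelled FFA2 global KO, against 0.74, 0.04 and −0.38 in WT replicates 1 to 3. WT libraries held the highest mitosis level and nearly the lowest, and the range over libraries was 1.24.

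The difference of S phase minus mitosis was −0.38, 0.36 and 0.04 in replicates 1 to 3 labelled FFA2 global KO, against −0.64, 0.21 and 0.38 in WT replicates 1 to 3. Both genotypes thus held a library with mitosis well above S phase and a library with the reverse, and replicate 1 was the library with mitosis above S phase in each genotype. The mean difference was 0.01 ± 0.37 with the label FFA2 global KO and −0.02 ± 0.54 in WT (SD, n = 3 each). The genotypes differed by 0.02, far less than the spread between libraries of a genotype. The difference was −0.24 to 0.24 with each library left out, and −0.36 without replicates 2 and 3 labelled FFA2 global KO, the libraries with the most acinar counts. On summed CPM the mitosis members came to 65.3, 41.6 and 58.2 in libraries labelled FFA2 global KO, against 91.4, 61.2 and 47.8 in WT libraries. The S phase members other than Pcna came to 124, 125 and 146 summed CPM in libraries labelled FFA2 global KO, against 145, 142 and 140 in WT libraries.

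**Figure D4:**
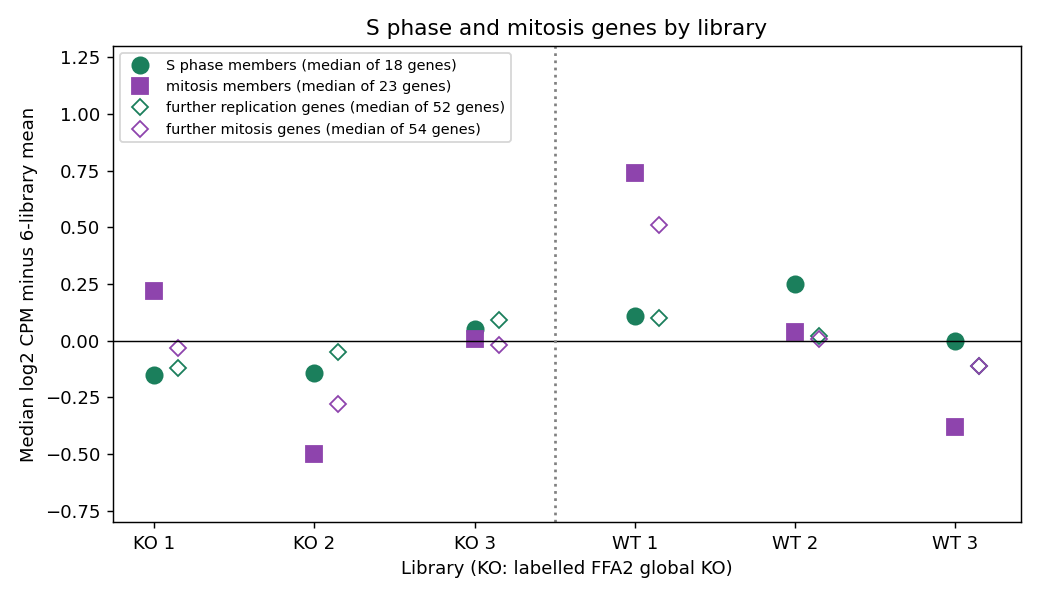
Median level of each stage in each library (log2 CPM minus the mean over the 6 libraries, vertical axis), with libraries labelled FFA2 global KO on the left and WT on the right. Filled symbols are the 18 S phase and 23 mitosis members, and open symbols are the 52 further replication and 54 further mitosis genes. The mitosis squares range from −0.50 to 0.74, and the S phase circles from −0.15 to 0.25.

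The mitosis members tended to be highest together in WT replicate 1. It was the highest library for 19 of 23 mitosis members (82.6%), for 6 of 18 S phase members (33.3%) and for 11.8% of all genes tested. Replicate 2 labelled FFA2 global KO was the lowest library for 12 of 23 mitosis members, against 10.7% of all genes tested. Among S phase members, replicates 1 and 2 labelled FFA2 global KO were lowest for 8 (44.4%) and 7 (38.9%) of 18, against 27.9% and 10.7% of all genes tested, and WT replicates 1 and 2 for 0. Without WT replicate 1 the median log2 fold change was 0.05 over the mitosis members and −0.18 over the S phase members. In summed CPM, WT replicate 1 was highest in 0 of 10 marker lists for islet, exocrine, ductal, endothelial, stromal, immune and Schwann cells. The same held for replicates 1 and 2 labelled FFA2 global KO. The acinar share of WT replicate 1, at 2.98%, lay within the range of the other libraries. What set the mitosis level of that library was not tested.

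**Figure D5:**
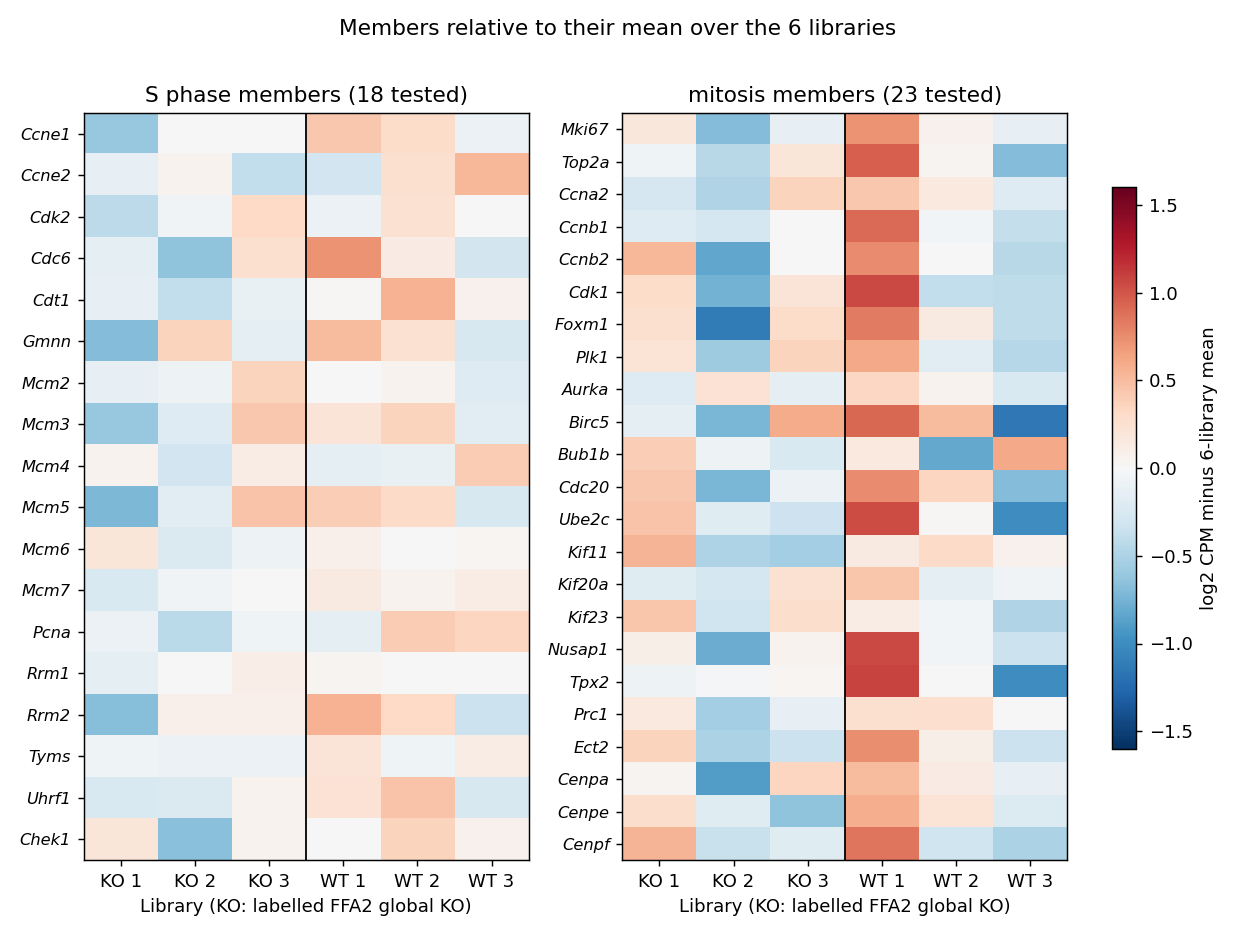
Log2 CPM of each tested member minus its mean over the 6 libraries (colour, red above and blue below the mean), with libraries labelled FFA2 global KO in the 3 left columns and WT in the 3 right columns of each panel. In the mitosis panel the WT 1 column is red throughout, while in the S phase panel the colours are mostly paler and the WT 2 column is above the mean for most genes.

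The spread between libraries of a genotype was also larger for the mitosis members than for the S phase members. The median SD of log2 CPM within a genotype was 0.53 for the mitosis members and 0.29 for the S phase members, against 0.20 for all genes tested. Their median mean counts were 40.0 for mitosis and 80.2 for S phase, against 466 for all genes. Counting error alone would give a median SD of 0.23 for mitosis and 0.16 for S phase, against 0.07 for all genes, so the observed spread was above counting error in both stages.

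Other genes of the same processes, holding no member, gave a wider view. They were listed from general knowledge, but with earlier results of these data known. Of 55 further replication genes 52 were tested, and the median log2 fold change was −0.07, with 29 of 52 below 0 (55.8%). Of 69 further mitosis genes 54 were tested, and the median was −0.23, with 41 of 54 below 0 (75.9%). Over all genes tested the median was 0.02, with 46.7% below 0. In edgeR 0 of either list passed the adjusted p, as in DESeq2 and limma-voom. At an unadjusted p under 0.05 in edgeR, 2 replication genes were lower and 2 higher in the libraries labelled FFA2 global KO. Of the mitosis genes, 3 were lower and 0 higher at that p, while over all genes tested 2.12% were lower and 2.58% higher. WT replicate 1 was highest for 32 of the 54 further mitosis genes (59.3%) and for 11 of the 52 further replication genes (21.2%). Over all genes tested it was highest for 11.8%.

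In the replication list, Dut, the enzyme that clears dUTP, had 29.2, 32.2 and 31.6 CPM in libraries labelled FFA2 global KO, against 37.4, 40.0 and 38.8 CPM in WT libraries. The genotypes did not overlap, with a log2 fold change of −0.32 (SE 0.09, adjusted p = 0.852 from edgeR). Tipin, a protein of the replication fork, had a log2 fold change of −0.29 (SE 0.12). Cdc7, the kinase that fires origins, had 3.24, 1.70 and 2.47 CPM in libraries labelled FFA2 global KO, against 1.41, 1.21 and 1.3 CPM in WT libraries. Every library labelled FFA2 global KO was above every WT library, with a log2 fold change of 0.92 (SE 0.31, adjusted p = 0.852 from edgeR), and Gins3, a helicase cofactor, also had 0.92 (SE 0.35). In the mitosis list, Racgap1, a partner of KIF23 in the central spindle, had 16.1, 14.3 and 18.4 CPM in libraries labelled FFA2 global KO, against 23.5, 19.2 and 23.9 CPM in WT libraries. The genotypes did not overlap, and the log2 fold change was −0.45 (SE 0.14, adjusted p = 0.852 from edgeR), against 0.30 for Kif23. Kif18a, a kinesin that steadies chromosome position, had a log2 fold change of −0.75 (SE 0.31). Of the estimates above 0 in that list, those of lowest unadjusted p were Cit and Incenp, which serve cytokinesis, at 0.38 (SE 0.28) and 0.19 (SE 0.17).

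Markers of other cells that can cycle in islets were read beside these values. The 14 myeloid genes had a median log2 fold change of −0.46, with 0 past the adjusted test. Of these, 14 of 14 were below 0, against 46.7% of all genes tested. They summed to 156, 159 and 195 CPM in replicates 1 to 3 labelled FFA2 global KO. In WT replicates 1 to 3 they summed to 181, 256 and 206 CPM, so WT replicate 1 was the lowest WT library. The 10 endothelial genes had a median of 0.06 and summed to 556 to 745 CPM in libraries labelled FFA2 global KO and 558 to 629 CPM in WT libraries. The 9 stromal genes had a median of −0.23 and summed to 78.3 to 281 CPM in libraries labelled FFA2 global KO and 98 to 332 CPM in WT libraries. The 12 acinar genes were above 0 in all 12 estimates, with a median of 1.94, and 0 passed the test. Without the 2 libraries with the most acinar counts, replicates 2 and 3 labelled FFA2 global KO, an alternative chosen after seeing the data, 30 of 43 members were below 0, and the median log2 fold change was −0.36 over S phase and −0.02 over mitosis. That fit holds 1 library labelled FFA2 global KO, which is assumed to vary like the WT libraries. The part of these cells in the members' levels was not tested.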

How the data were processed

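RNA of islets was sequenced in 6 libraries, 3 labelled FFA2 global KO and 3 WT. The authors aligned the reads to mm10 with TopHat2 (2.0.8b) and ran Cuffdiff (2.1.1), per the labels. How reads were counted per gene is not given in the sources used here. Their deposited files hold estimated counts for each gene and library without normalization, and RPKM values pooled per genotype, of which the RPKM are given only as the authors' values. Their comparison also holds a deposited log2 fold change, p-values and q-values and a test score, which were not used. Names with several values (158) and genes skipped by the authors' caller (15) were left out. Skipped genes held 1.08% to 1.81% of the counts in libraries labelled FFA2 global KO and 2.27% to 8.21% in WT libraries.

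Counts were rounded, filtered with filterByExpr (minimum count 10, minimum total 15), scaled by TMM and tested, two-sided, with edgeR 4.0.16 (glmQLFit, glmQLFTest, genotype only) in R 4.3.3, with Benjamini-Hochberg adjustment over 14082 genes at a threshold of 0.05. The biological coefficient of variation was 21.5%. Log2 CPM used a prior count of 2. The members and lists were chosen with earlier results of these data known. Values in every library are given for Mki67, the helicase subunits, the main cyclins and kinases and the members of lowest unadjusted p in each direction. Kif11, Prc1, Bub1 and Cdc25c were added after their values were seen. Other genes are given by range, and of the further lists those of lowest unadjusted p. Poisson intervals (95%) cover counting error only.

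Alternatives were no filter, 10 counts in every library, scaling by RLE, upper quartile or total count, a block for the replicate number, a robust fit, DESeq2 1.42.0, limma-voom (limma 3.58.1) and each library left out in turn. On simulated data for FFA2 global KO against WT over 14082 genes, the test recovered 17% of 1.5-fold, 67.2% of 2-fold and 94.8% of 4-fold changes. The changed genes were drawn at random from all genes tested, whose median mean count was 466. That count was 80.2 for the S phase and 40 for the mitosis members, which also spread more between libraries. Recovery was not simulated for the members, so these shares do not apply to them. Within each genotype, counts of every pair of libraries differed beyond sampling noise (chi-square per gene of 27.6 or more).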

Additional observations from a re-analysis of the deposited data

How the results depend on the processing

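The adjusted test called 0 members under every one of the 16 alternative fits run. Over all genes it called 1 gene without a filter, 8 in DESeq2 and 165 without the 2 libraries highest in acinar genes, and 0 with each single library left out. Genes at an unadjusted p under 0.05 numbered 661, against 225 to 1238 with each library left out and 2849 without the acinar-rich pair. Members at that p numbered 1 under upper-quartile scaling, total-count scaling, no filter and DESeq2 (Pcna each time). Over all genes the shares in those fits were 4.34%, 4.6%, 4.05% and 4.91%. With each library left out, members at that p numbered 0 to 2, against 1.58% to 8.66% of all genes. Total-count scaling moved the median of all genes to −0.14 and that of the S phase members to −0.45. With each library left out, medians ran from −0.43 to −0.08 (all members), −0.32 to −0.17 (S phase) and −0.56 to 0.05 (mitosis).

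Of the 41 members tested, 39 had estimates below 0, against 24 of 41 without WT replicate 1. Of the 23 tested members that the naming rule picked, which alone were followed through every fit, 11 changed sign in some fit. With each library left out their log2 fold changes ran from −0.07 to 0.20 (Mcm2), −0.20 to 0.10 (Mcm4), −0.19 to 0.03 (Mcm6), −0.67 to 0.20 (Top2a), −0.71 to 0.05 (Ccnb1), −0.55 to 0.42 (Cdk1), −0.69 to 0.04 (Cdc20), −0.24 to 0.41 (Plk1), −0.84 to 0.08 (Birc5), −0.61 to 0.06 (Foxm1) and −0.45 to 0.50 (Cenpf). Mcm2 was −0.07 under total-count scaling. In limma-voom Plk1 was 0.01 and Cenpf 0.03. Without the acinar-rich pair, chosen after seeing the data, Mcm2 was −0.09, Mcm6 0.15, Cdk1 0.02, Cdc20 0.18, Plk1 0.17 and Cenpf 0.41. The cause was not tested. For libraries of the same number, deviations of log2 CPM from the genotype mean correlated at 0.114, −0.138 and −0.344. For libraries of unlike number they ran from −0.499 to 0.591. The values gave no sign of pairing by number, but with so few libraries they cannot exclude it. With the replicate block, 454 genes had an unadjusted p under 0.05, 0 passed the adjusted test and 38 of 41 members were below 0.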
